A study of Mus musculus with 4 samples.

Results

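The 9 genes described here encode chains of the basement membrane, the sheet of extracellular matrix on which prostate epithelium rests. They were taken by name from a table of 31053 genes, and all 9 were present in each of the 4 tables of unique molecular identifiers (UMIs). *Col4a1*, *Col4a2*, *Col4a5* and *Col4a6* encode type IV collagen chains. *Lama1*, *Lama5*, *Lamb1* and *Lamc1* encode laminin chains, and *Nid1* encodes nidogen, which bridges the laminin and collagen networks. The list holds no threshold on a measured value, but it was drawn up with earlier results of these data known.

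Type IV collagen is secreted as a trimer of alpha chains. The chains of *Col4a1* and *Col4a2* form the network found under most epithelia and vessels, whereas those of *Col4a5* and *Col4a6* join in another trimer with a narrower distribution, known from skin, kidney and smooth muscle. Laminins are trimers of an alpha, a beta and a gamma chain. The alpha chain carries the sites for integrins and dystroglycan on the cell surface, and the *Lama1* chain is best known from embryonic basement membranes while the *Lama5* chain is widespread in adult epithelia. In the prostate, basal cells sit directly on this sheet, and the secretory luminal cells lie above them or reach it between them.

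The study sequenced single prostate cells from ICR (CD-1) P2-Runx1:RFP mice, a reporter strain in which red fluorescent protein is driven from the P2 promoter of *Runx1*. Adult mice, all older than 8 weeks, were either intact or castrated more than 4 weeks earlier, and cells from pooled mice were sorted as EPCAM+ from the 3 prostate lobes, anterior (AP), dorsolateral (DLP) and ventral (VP), separately for RFP+ and RFP- cells. Each fraction carried its own lipid-tag barcode, so that the fractions of one run shared a library. There were 3 adult runs. Run 1 held intact fractions and castrated lobes pooled together, run 2 held intact and castrated fractions of each lobe, and run 3 held intact fractions only, among them the only intact DLP RFP+ fraction. The fourth library held explants of the urogenital sinus of E15.5 P2-Runx1:RFP embryos, collected on the day of dissection (day 0) and after 1, 3 and 6 days of culture in 10 µM dihydrotestosterone. All cells came from the same reporter strain, so the RFP allele was common to every group.

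After filtering and barcode assignment 824, 2194 and 1673 adult cells and 5198 explant cells remained, with a median of 9750 to 13055 UMIs per cell in the adult runs and 14784.5 in the explant library. At most 2 cell barcodes were shared by any 2 libraries. Of 4691 adult cells 4090 were epithelial, which split into 2075 basal-like cells (*Krt5*, *Krt14*, *Krt15*, *Krt17*, *Trp63*) and 2015 luminal-like cells. Despite the EPCAM gate, 384 hematopoietic-like, 118 fibroblast-like and 65 endothelial-like cells were present, and 34 cells were mesonephric-like. Levels are given below in CPM, the UMIs of a gene over the UMIs of all genes, times 1000000, after summing the cells of one population in one run. The 3 runs served as replicates.

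The genes lie on 7 chromosomes (GRCm38), and the collagen genes lie in 2 head-to-head pairs. *Col4a1* (chr8:11198423-11312826, minus strand) and *Col4a2* (chr8:11312805-11449287, plus strand) are transcribed away from each other and overlap by 22 bases at their starts. *Col4a6* (chrX:141165403-141474076, minus strand) and *Col4a5* (chrX:141475385-141689234, plus strand) are also transcribed away from each other, with 1308 bases between their starts. The laminin genes and *Nid1* lie apart, *Lama1* at chr17:67697259-67822647, *Lama5* at chr2:180176373-180225859, *Lamb1* at chr12:31265234-31329644, *Lamc1* at chr1:153218922-153332786 and *Nid1* at chr13:13437551-13512269. The 2 promoters of the X-linked pair are shown, since the counts of these neighbours went different ways in the luminal cells. They are RefSeq sequences of GRCm38.p6, 5′ to 3′ on the strand of the gene, and end at the base before its start. Capitals mark a match to GGGCGG read on the opposite strand (CCGCCC) in *Col4a6*, and to CCAAT in *Col4a5*.
Col4a6 (chrX:141474077-141474326, minus strand): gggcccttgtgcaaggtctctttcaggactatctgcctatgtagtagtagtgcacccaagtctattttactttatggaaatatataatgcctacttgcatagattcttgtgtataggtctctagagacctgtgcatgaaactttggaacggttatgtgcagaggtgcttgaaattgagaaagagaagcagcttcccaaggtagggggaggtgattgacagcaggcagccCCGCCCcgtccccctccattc
Col4a5 (chrX:141475169-141475384, plus strand): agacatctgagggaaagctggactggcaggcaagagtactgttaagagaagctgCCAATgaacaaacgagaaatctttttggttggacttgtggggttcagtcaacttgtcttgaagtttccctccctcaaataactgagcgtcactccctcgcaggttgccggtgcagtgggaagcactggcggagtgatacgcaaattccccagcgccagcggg

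A RefSeq promoter, 300 bases around the start, was at hand for 7 of the 9 genes (not *Lama1* or *Lamc1*). On either strand GGGCGG was present in 7 of the 7, against 35.7% of 32851 promoters, and CCAAT in 5, against 37.4%. TATAAA was present in 0, against 13.6%, the RUNX motif TGTGGT in 0, against 16.8%, and its variant TGCGGT in 2, against 6.5%. The promoters of *Col4a1* (chr8:11312777-11313076) and *Col4a2* (chr8:11312555-11312854) overlap, so a site in the shared bases counts for both. No motif contains another, and a match only describes the sequence.

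The first comparison asked which epithelial compartment of the intact adult prostate carried the transcripts. All members but *Col4a6* were higher in basal-like than in luminal-like cells, by 1.16 on the log2 scale for *Lama5* up to 5.59 for *Col4a2*. Intact basal-like cells numbered 284, 377 and 1099 in the 3 runs and luminal-like cells 371, 565 and 526.

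*Col4a1* stood at 85.3, 119 and 119 CPM in the basal-like cells of runs 1 to 3, and at 4.44, 2.77 and 3.64 CPM in the luminal-like cells. Its partner *Col4a2* stood at 44.1, 81.6 and 56.5 CPM against 1.11, 0.597 and 0.910 CPM. Every basal value lay far above every luminal value for both chains. *Col4a1* rose in basal-like cells by 4.37 on the log2 scale (SE 0.28, adjusted p = 3.37e-05, edgeR's quasi-likelihood test with Benjamini-Hochberg adjustment, 3 runs), and *Col4a2* by 5.59 (SE 0.36, adjusted p = 3.5e-05). *Col4a5* was at 21.7, 24.7 and 15.2 CPM against 6.22, 2.71 and 2.99 CPM, without overlap, and rose by 1.86 (SE 0.24, adjusted p = 0.000675).

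*Col4a6* behaved differently from its neighbour. It was at 19.9, 20.9 and 16.1 CPM in basal-like cells and at 23.3, 20.2 and 19.4 CPM in luminal-like cells, and the 2 groups overlapped. Its fitted log2 difference was -0.73 (SE 0.17, adjusted p = 0.00956), but it was 0.45 (adjusted p = 0.0606) when all intact populations entered the fit separately, and the adjusted p was 0.0738 without run 2 and 0.131 without run 3. The luminal-like value was an average of unlike clusters, described below.

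Among the laminins, the alpha chain *Lama1* was at 17.2, 21.4 and 18.7 CPM in basal-like cells and at 0.667, 0.380 and 0.455 CPM in luminal-like cells, a rise of 4.71 (SE 0.27, adjusted p = 2.85e-05). The beta chain *Lamb1* was at 17.6, 25.5 and 21.7 CPM against 1.44, 0.759 and 1.24 CPM and rose by 3.70 (SE 0.30, adjusted p = 9.62e-05). Luminal-like values of both chains stayed at or below 1.44 CPM in all 3 runs. The other alpha chain *Lama5*, at 55.8, 44.7 and 31.6 CPM, and the gamma chain *Lamc1*, at 39.3, 39.0 and 27.8 CPM, were also high in basal-like cells, but their luminal-like levels were well above 0.

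*Lama5* was at 27.0, 8.84 and 7.47 CPM in luminal-like cells and rose by 1.16 in basal-like cells (SE 0.32, adjusted p = 0.0208), which was 0.178 without run 2 and 0.0815 without run 3. *Lamc1* was at 16.6, 5.15 and 5.33 CPM and rose by 1.53 (SE 0.30, adjusted p = 0.00461), which was 0.0668 without run 2. The highest luminal value of both chains came from run 1. *Nid1* was sparse, at 4.57, 6.42 and 2.65 CPM in basal-like cells, and luminal-like cells held 3 of its UMIs in all 3 runs together. It rose by 5.14 (SE 0.68, adjusted p = 0.000731).

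In sum 8 of the 9 members were called higher, where 23.0% of 11932 genes tested were, and 1 was called lower, where 23.2% were, so that all 9 were called where 46.2% of genes were. The median log2 difference of the members was 3.7 and that of all genes 0. Basal-like cells had fewer UMIs per cell, with medians of 8559 to 10657.5 against 17095 to 26410 for luminal-like cells. An upper limit of 7500 UMIs per cell, the form in which the study's methods give it, in place of 7500 genes left 5 members with enough counts, of which *Col4a1* and *Col4a2* were called higher and *Col4a6* lower, while the adjusted p was 0.179 for *Lama5* and 0.369 for *Lamc1*.

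**Figure D1:**
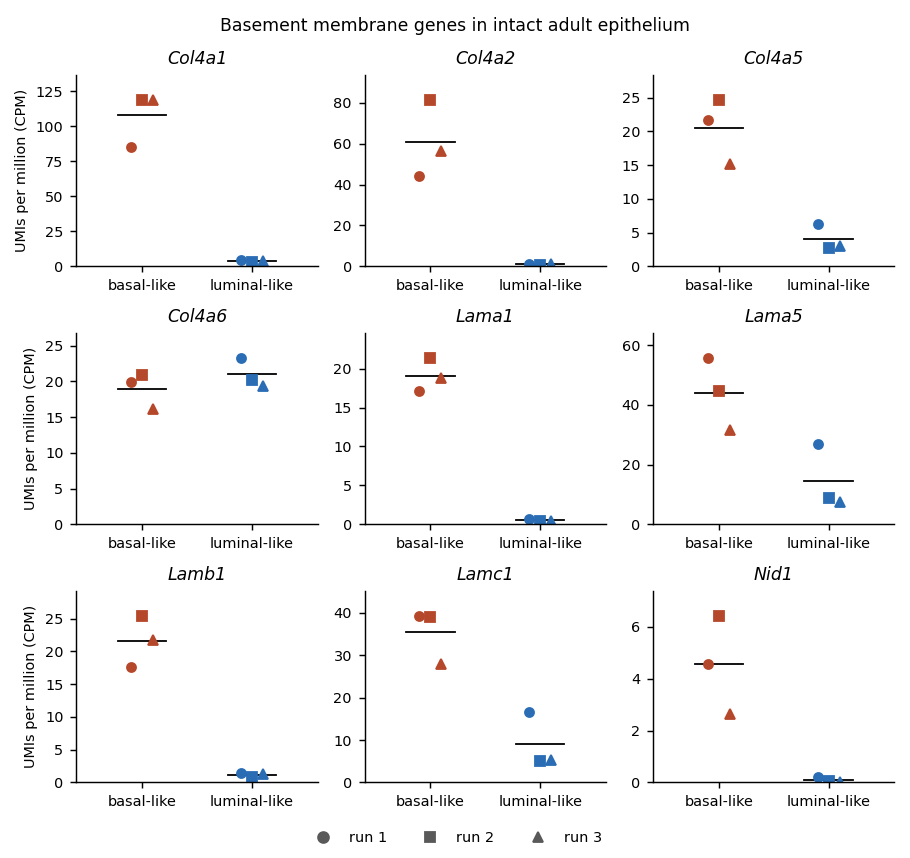
CPM of each member in intact basal-like (red) and luminal-like (blue) cells. Each point is the sum over the cells of 1 run, the bar is the mean of 3 runs, and each panel has its own axis from 0. The basal and luminal points overlap for Col4a6 and are apart for the other 8 members.

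The other genes of the pathway were counted in the same contrast, beside the 23.0% of all genes that were higher and the 23.2% that were lower. Of 14 other basement membrane chains, 9 could be tested, of which 8 rose in basal-like cells and *Lamb2* fell by 0.63. The largest rises were those of *Col18a1*, a collagen with heparan sulfate chains (5.49), of the heparan sulfate proteoglycan perlecan, *Hspg2* (4.69), and of the laminin-332 beta chain *Lamb3* (4.53). Of 10 receptors, all tested, 8 rose, among them *Bcam*, which binds the *Lama5* chain (3.72), the collagen-binding integrin *Itga1* (3.16) and the laminin-binding integrin *Itga6* (2.67). *Itga6* encodes CD49f, a usual surface marker of basal cells.

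Of 12 genes for collagen synthesis and cross-linking 10 could be tested, of which 6 rose and 2 fell. *Pxdn*, the peroxidase that links type IV collagen trimers, rose by 6.01, *Sparc*, which binds collagen, by 5.54 and *Serpinh1*, the collagen chaperone, by 4.63. *P4hb*, a subunit of prolyl hydroxylase and also a general protein disulfide isomerase, fell by 1.95. Of 8 genes for matrix turnover 7 could be tested, of which 4 rose, with *Mmp2* (4.14) and *Adamts1* (3.86) as the largest, and *Mmp7*, a protease of secretory epithelium, fell by 4.85.

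The same contrast was made inside one sorted fraction, AP RFP+ cells, where the luminal-like cells were mostly of the Lum-D-like cluster described below. Here 5 of 8 members tested were higher in basal-like cells, where 14.6% of 9538 genes were, and 0 were lower, where 14.7% were (29.3% in either direction). *Col4a2* rose by 5.62 (SE 0.44), *Col4a1* by 4.30, *Lama1* by 3.58 (SE 0.39, adjusted p = 0.00017), *Lamb1* by 2.41 (SE 0.34, adjusted p = 0.000726) and *Col4a5* by 1.20 (SE 0.26, adjusted p = 0.00684, but 0.0579 without run 2). The log2 difference was 0.33 for *Lama5* (adjusted p = 0.229) and 0.59 for *Lamc1* (adjusted p = 0.143). *Col4a6* differed by 0.72 (adjusted p = 0.0818), and by 0.70 (adjusted p = 0.0323) with the run as a block. With the limit of 7500 UMIs per cell 1 member, *Lama5*, could be tested, with 0 called.

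Cells outside the epithelium set the scale. Pooled over the intact runs, *Col4a1* was at 300.6 CPM in fibroblast-like cells, 261.8 in endothelial-like cells and 111.4 in basal-like cells. It was between 1.91 and 6.48 in the 4 luminal clusters named below. *Nid1* was at 139.6 CPM in fibroblast-like cells and 43.2 in endothelial-like cells, against 3.92 in basal-like cells. *Lamb1* was at 139.6 CPM in fibroblast-like, 33.1 in endothelial-like and 21.6 in basal-like cells. *Lama1* had the opposite order, with 19.0 CPM in basal-like cells, 8.90 in endothelial-like cells and 6.10 in fibroblast-like cells.

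Hematopoietic-like cells were used as a rough measure of background such as free RNA. They had passed the EPCAM gate, and 38.8% of the largest such cluster (281 cells) held an *Epcam* UMI. Their level may thus not be free RNA alone. *Col4a1* had a UMI in 4.26% of hematopoietic-like cells (median 6818 UMIs per cell) and in 55.3% of basal-like cells (median 8940). With every cell thinned to 3000 UMIs the shares were 1.45% and 25.2%. The hematopoietic-like *Col4a1* level was 0, 7.24 and 45.9 CPM in runs 1 to 3, the last from 12 UMIs in 10 cells, and 9.49 CPM pooled. The pooled level lay above that of the 4 named luminal clusters, but without run 3 it was 6.21 CPM, below the 6.48 CPM of Lum-C-like cells. By size alone, *Col4a1* levels of a few CPM in these clusters could not be told from background. The share of *Col4a2* among the UMIs of the pair was 36.2% in hematopoietic-like and 10.3% in Lum-A-like cells (2.27% without run 2). In hematopoietic-like cells *Col4a2* had 15 of 33 UMIs in run 2 and 0 of 12 in run 3. The Lum-A-like counts were 8 of 43 and 1 of 27. Both shares thus rested mostly on run 2, and their difference was not tested. The 24 intact luminal-like cells outside the 4 clusters had *Col4a1* at 37.2 CPM (95% Poisson interval 20.8 to 61.4, 15 UMIs). The pooled hematopoietic-like levels of *Lama5*, *Lamc1* and *Col4a6* were 6.96, 7.91 and 3.16 CPM.

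The luminal-like cells formed clusters that were named from marker lists. Lum-A-like cells (*Spink1*, *Sbp*, *Sbpl*) made up most of the VP luminal cells, Lum-B-like cells (*Tgm4*, *Gsdma*, *Gm5615*) most of the RFP- luminal cells of AP and DLP, and Lum-D-like cells (*Psca*, *Krt4*, *Krt7*) most of the AP RFP+ luminal cells. Lum-C-like cells (*Msmb*, *Defb50*) were few. The members were left out of the genes used for clustering, but the clusters come from the same cells, so their levels by cluster are a description without a test.

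*Col4a6* was highest in Lum-B-like cells. It was at 83.1, 109.8 and 154.4 CPM in the Lum-B-like cells of runs 1 to 3, and had a UMI in 61.6% of the 388 cells. Pooled over runs it was at 112.7 CPM in Lum-B-like cells, 18.0 in basal-like cells, 0.455 in Lum-A-like cells, 3.81 in Lum-C-like cells and 5.43 in Lum-D-like cells. The lowest Lum-B-like run was above every run of the other epithelial classes. In fibroblast-like cells it was at 38.9 CPM.

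*Col4a5* did not follow its neighbour across the clusters. It was at 8.33 CPM in Lum-B-like cells, 10.7 in Lum-D-like cells and 0.265 in Lum-A-like cells, all below the basal-like runs. As a share of the UMIs of the pair, *Col4a6* took 93.1% in Lum-B-like cells (95% Wilson interval 91.3 to 94.6%), 49.0% in basal-like cells (45.3 to 52.7%) and 33.7% in Lum-D-like cells (25.1 to 43.5%). These intervals, like all others below, cover counting error only.

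Among the 4 named luminal clusters *Lama5* and *Lamc1* were highest in Lum-D-like cells. *Lama5* was at 55.0, 46.3 and 34.6 CPM there, in the range of the basal-like runs, and pooled it was at 10.3 in Lum-B-like cells, 7.62 in the Lum-C-like cluster and 4.66 in the Lum-A-like cluster. *Lamc1* was at 38.0, 22.3 and 21.9 CPM in Lum-D-like cells, against 9.02 pooled in Lum-B-like and 1.82 in Lum-A-like cells. Every Lum-D-like run of both chains lay above every Lum-A-like and Lum-B-like run. A *Lama5* UMI was found in 41.4% of Lum-D-like cells and 31.1% of basal-like cells.

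**Figure D2:**
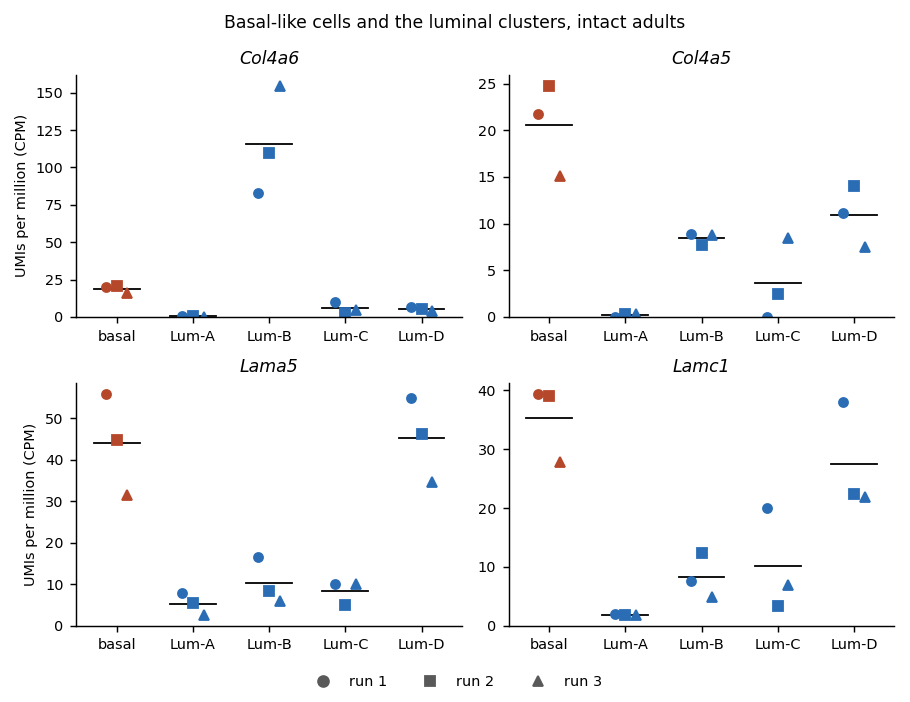
CPM of 4 members in basal-like cells (red) and in the Lum-A-like to Lum-D-like clusters (blue) of intact adults. Each point is the sum over the cells of 1 run and the bar is the mean of the runs. Col4a6 stands out in Lum-B-like cells, with runs from 83.1 to 154.4 CPM, while Lama5 and Lamc1 are highest in Lum-D-like cells among the 4 luminal clusters drawn.

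The RFP gate was set by sorting, before any clustering, so the sorted fractions allowed a test. Which cells counted as luminal-like still came from the clusters. Of the AP luminal-like cells, 386 of 453 in the RFP+ fraction were Lum-D-like. In the RFP- fraction 233 of 273 were Lum-B-like. The test thus largely repeats the contrast of these clusters, and gate and cluster cannot be told apart in it. In AP luminal-like cells *Col4a6* was at 15.7, 12.0 and 7.61 CPM in the RFP+ fraction and at 65.8, 70.8 and 139.7 CPM in the RFP- fraction, without overlap. It was lower in RFP+ cells by 3.06 on the log2 scale (SE 0.36, adjusted p = 0.000611). *Lama5* was at 47.3, 30.5 and 32.1 CPM in RFP+ and 17.1, 8.35 and 6.92 CPM in RFP- cells, also apart, and rose by 1.60 in RFP+ cells (SE 0.27, adjusted p = 0.00302, but 0.0604 without run 2). With the limit of 7500 UMIs per cell no member had enough counts for this test. Of 8833 genes 13.2% were higher and 11.4% lower in RFP+ cells.

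*Lamc1* was at 33.6, 12.6 and 18.5 CPM in AP RFP+ luminal-like cells and at 11.4, 9.21 and 0 CPM in the RFP- cells. The groups did not overlap, and the log2 difference was 1.23 (SE 0.49, adjusted p = 0.098), or 1.18 (adjusted p = 0.0388) with the run as a block. *Col4a5* was at 10.4, 8.38 and 8.16 CPM against 6.96, 6.91 and 8.30 CPM, with overlap, and differed by 0.16 (adjusted p = 0.745). The other 5 members had too few counts in these cells to be tested.

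In the same contrast 3 of 8 receptors tested rose in RFP+ cells, *Bcam* by 2.50, the integrin chain *Itgb4* by 2.08 and dystroglycan, *Dag1*, by 1.23. Agrin, *Agrn*, rose by 1.33, while the laminin alpha chain *Lama3* fell by 1.71. Of 6 turnover genes tested 4 rose, among them the protease inhibitor *Timp2* (3.23) and the proteases *Mmp14* (2.28) and *Mmp7* (1.74), and *Timp1* fell by 1.17.

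The RFP- luminal-like cells were then compared between lobes, which held different clusters. Lum-B-like cells numbered 233 in the AP, 108 in the DLP and 2 in the VP, where 78 cells were Lum-A-like and 38 Lum-C-like. Lobe and cluster thus cannot be told apart between AP and VP. *Col4a6* was at 1.80, 1.29 and 0 CPM in the VP, at or below the level of hematopoietic-like cells, and higher in the AP by 5.42 on the log2 scale (SE 0.60, adjusted p = 0.00041). It was 1 of 2 members tested, where 7.56% of 7288 genes were higher in the AP and 7.96% lower. The DLP values of 98.0, 64.8 and 105 CPM overlapped those of the AP, with a log2 difference of -0.06 (SE 0.32, adjusted p = 0.993). In that contrast 0 of 4 members were called, where 0.68% of 8084 genes were (0.482% higher and 0.198% lower in the AP). *Lama5*, the other member tested between AP and VP, differed by 0.21 (adjusted p = 0.811).

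In VP luminal-like cells *Lama5* was the only member with enough counts, and RFP+ and RFP- cells differed by 0.27 (SE 0.60, adjusted p = 1), where 0.289% of 7958 genes were called. The difference between the RFP effects in AP and VP luminal-like cells was tested directly. It was called for 0 of 5 members, where 4.65% of 9665 genes were (2.67% higher and 1.98% lower), with a value of -2.35 for *Col4a6* (adjusted p = 0.216) and 1.33 for *Lama5* (adjusted p = 0.316).

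Within basal-like cells, lobes and RFP fractions were compared to ask whether basal cells are alike. In the AP the fitted differences of the members between RFP+ and RFP- basal-like cells were small. The log2 differences of the 8 members tested ran from -0.09 to 0.28, and 0 were called, where 0.0% of 8490 genes were. There were 94 genes at an unadjusted p under 0.05 by edgeR and 42 by DESeq2, fewer than the share of 0.05 that no difference at all would give. Sums of the same run correlated by 0.668, 0.441 and 0.522, which this fit leaves out. The lack of calls therefore cannot show that the fractions are alike. With the run as a block some genes were called, but no member.

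Between lobes, the *Col4a1* and *Col4a2* pair was higher in VP than in AP RFP+ basal-like cells in every run. *Col4a1* was at 73.8, 82.4 and 82.8 CPM in the AP and at 146, 214 and 178 CPM in the VP. *Col4a2* was at 43.1, 56.1 and 43.1 CPM in the AP and at 94.9, 144 and 83.4 CPM in the VP. The 2 lobes did not overlap for either chain, whereas *Lama5*, at 59.3, 44.0 and 34.9 CPM in the AP and 43.8, 47.9 and 26.9 CPM in the VP, overlapped.

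The AP minus VP log2 difference was -1.23 for *Col4a1* (SE 0.24, adjusted p = 0.0647) and -1.26 for *Col4a2* (SE 0.25, adjusted p = 0.0707), so that 0 of 8 members were called, where 0.427% of 7732 genes were. With the run as a block, which pairs fractions of the same library, the differences were -1.22 (adjusted p = 2.15e-07) and -1.22 (adjusted p = 6.52e-06), and both were called. Without run 1 the adjusted p values were 0.0194 and 0.0395.

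The VP RFP+ basal-like cells were few and clustered unlike the AP cells. Of 154 such cells, 103 lay in 2 clusters of the whole data set with high scores for endothelial markers, compared with 28 of 509 AP RFP+ basal-like cells. The cells of these clusters with 5 or more endothelial UMIs had been set apart. In the cells kept, the 4 endothelial markers summed to 3.65, 8.38 and 5.38 CPM in the VP. The AP sums were 13.4, 6.39 and 7.84 CPM. The removal by endothelial UMIs limits these sums, and these clusters held a larger part of the VP cells. The sums therefore cannot show whether endothelial RNA differed between the lobes. Without the cells of those clusters, run 3 kept 8 VP cells and left the fit, runs 1 and 2 kept 10 and 33, and the differences were -0.61 for *Col4a1* and -1.07 for *Col4a2* (adjusted p = 1 for both). Smooth muscle markers summed to 266.5, 73.05 and 37.68 CPM in the VP cells and 25.5, 39.78 and 10.45 CPM in the AP cells, and their part in the result was not tested.

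Basal-like cells of the other fractions were also measured. *Col4a1* was at 86.5, 91.2 and 57.1 CPM in AP RFP- cells, at 117, 120 and 135 CPM in DLP RFP- cells, at 169.7 CPM in the DLP RFP+ cells of run 3, and at 108 and 85.3 CPM in the VP RFP- cells of runs 2 and 3. The VP RFP- and AP RFP- cells overlapped in their runs. The DLP RFP- runs lay above both and below the DLP RFP+ run, which fell within the range of the VP RFP+ runs.

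**Figure D3:**
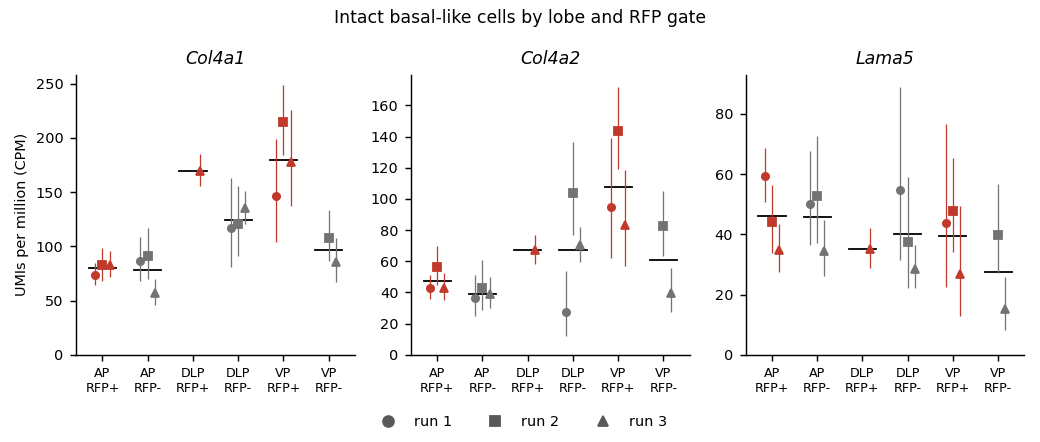
CPM of Col4a1, Col4a2 and Lama5 in intact basal-like cells by lobe and RFP gate (RFP+ red, RFP- grey). Each point is 1 run with its 95% Poisson interval, which covers counting error only, and the black bar is the mean of the runs. The VP RFP+ points of Col4a1, at 146 to 214 CPM, lie above all AP points, while those of Lama5 overlap the AP.

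The step from luminal-like to basal-like cells was also compared between lobes within the RFP+ fraction. The step was larger in the VP than in the AP for 4 of 9 members, where 5.44% of 10167 genes had a lower value in the AP, and larger in the AP for 0, where 3.42% had a higher value (8.86% in either direction). The AP minus VP difference of the step was -2.55 for *Lamc1* (SE 0.41, adjusted p = 0.00178), -4.09 for *Col4a5* (SE 0.61, adjusted p = 0.0011), -4.49 for *Lamb1* (SE 0.93, adjusted p = 0.00885) and -5.25 for *Lama1* (SE 0.97, adjusted p = 0.00707). With the run as a block 7 members were called, without run 2 there were 0 and without run 3 there were 2.

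The luminal side of this comparison held different clusters, mostly Lum-D-like cells in the AP and Lum-A-like cells in the VP. *Lamc1* was at 1.78, 2.18 and 2.46 CPM in VP RFP+ luminal-like cells, far below the AP values given above and below the pooled hematopoietic-like level, while the basal-like cells of the VP, at 54.8, 45.5 and 32.3 CPM, overlapped the AP runs. *Lama1* had 0 UMIs in VP RFP+ luminal-like cells against 40 in the basal-like cells of the 3 runs, at least 166-fold higher by the floor of 3 counts over the summed runs. *Lamb1* had 1 UMI against 34, a ratio of 423.5 with a 95% exact interval of 71.05 to 17220. *Col4a5* had 4 UMIs against 32, a ratio of 99.66 (35.34 to 387.9). In AP RFP+ luminal-like cells *Lama1* was at 1.68, 1.20 and 1.09 CPM and *Lamb1* at 3.36, 4.19 and 5.44 CPM. The fitted differences of *Lama1*, *Lamb1* and *Col4a5* rest on these few VP counts.

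Castrated and intact cells could be compared by lobe only within run 2, where each group was 1 pool of mice. There is no replicate and no test, and treatment and pool of mice cannot be told apart. A member counted as changed with a difference of at least 2-fold and 20 UMIs over both groups. In basal-like cells of the castrated prostate the *Col4a1* and *Col4a2* pair and *Lama1* were lower in both lobes that could be compared, while *Lama5* and *Col4a6* stayed within the 2-fold limit.

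In AP RFP+ basal-like cells (156 castrated, 120 intact), *Col4a1* was at 40.7 CPM after castration and 82.4 CPM in intact mice, a ratio of 0.494 (95% exact interval 0.349 to 0.690). *Col4a2* was at 13.3 and 56.1 CPM, a ratio of 0.237 (0.132 to 0.404). *Lama1* had 4 and 31 UMIs, a ratio of 0.142 (0.0364 to 0.402). *Col4a5* had a ratio of 0.459 (0.233 to 0.859) and *Lamc1* of 0.445 (0.254 to 0.751). In all 5 of 8 members with enough counts were at least 2-fold lower, where 12.2% of 7871 genes were, and 0 were higher, where 2.21% were. The median gene had a log2 ratio of -0.29, and relative to it *Col4a1* was lower by 0.73 and *Col4a2* by 1.79. *Lama5* was at 59.5 and 44.0 CPM, a ratio of 1.35 (0.953 to 1.92).

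In VP RFP+ basal-like cells (80 castrated, 79 intact), *Col4a1* was at 67.4 and 214 CPM, a ratio of 0.314 (0.203 to 0.470), and *Col4a2* at 40.9 and 144 CPM, a ratio of 0.285 (0.161 to 0.475). *Lama1* had 2 and 21 UMIs, a ratio of 0.191 (0.0218 to 0.783). These 3 of 8 members were at least 2-fold lower, where 14.1% of 5720 genes were. *Lama5* had a ratio of 1.06 and *Lamb1* of 1.05. Of the 79 intact cells, 46 lay in the 2 clusters with high scores for endothelial markers. Over the 6 castration contrasts together, 13 member values were at least 2-fold lower, and 11 without the cells of those clusters. The count was also 11 without the 50 most abundant genes. It was 10 without cells with a stromal or immune UMI, and 10 with compartments from keratin UMIs. Among the 13 is *Col4a1* in VP RFP+ luminal-like cells, from which no fold is drawn below. The share of all genes is given with each contrast. The castrated DLP RFP+ basal-like cells, with no labelled intact partner in run 2, had *Col4a1* at 47.8 CPM.

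Of 9 other basement membrane chains with enough counts 3 were at least 2-fold lower in the AP and 4 in the VP. *Col18a1* was lower after castration in both lobes, with ratios of 0.279 in the AP and 0.254 in the VP, as was *Col4a3*, with 0.304 and 0.215. Of the genes for collagen synthesis 8 had enough counts in the AP and 5 in the VP, of which 3 and 1 were at least 2-fold lower and 0 higher. *Sparc* was among them in both lobes, with ratios of 0.195 and 0.182, whereas *Serpinh1* had ratios of 0.651 and 0.708. Of 10 receptors with enough counts in the AP 0 passed 2-fold, and of 9 in the VP 1, *Cd151*, was lower.

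Other markers moved with these values. Basal markers summed to 7761 CPM in castrated and 10110 CPM in intact AP RFP+ basal-like cells of run 2, and to 6396 and 10470 CPM in the VP, while luminal markers summed to 3624 and 1971 CPM in the AP and 3370 and 1716 CPM in the VP. Smooth muscle markers summed to 21.9 and 39.8 CPM in the AP and to 7.22 and 73.1 CPM in the VP. Their part in the lower collagen values was not tested.

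**Figure D4:**
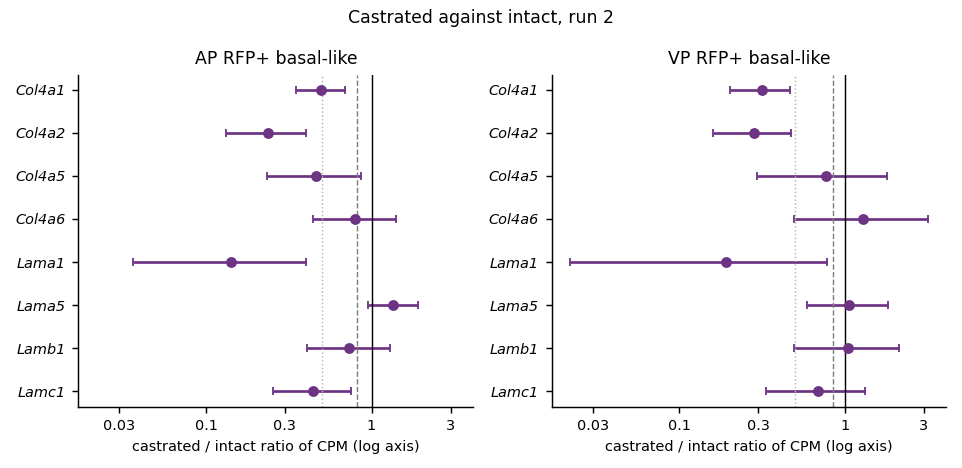
Ratio of castrated to intact CPM in RFP+ basal-like cells of run 2, on a log axis, with 95% exact intervals that cover counting error only. The solid line marks a ratio of 1, the dashed line the median gene and the dotted line 2-fold lower. Col4a1, Col4a2 and Lama1 lie to the left of the dotted line in both lobes, and Lama5 lies to the right of it in both.

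In luminal-like cells *Col4a6* was lower after castration in 3 of the 4 fractions that could be compared. In AP RFP- luminal-like cells (49 castrated, 149 intact) it had 3 UMIs after castration and 246 in intact mice, or 3.13 and 70.8 CPM, a ratio of 0.0441 (0.00904 to 0.131). In DLP RFP- cells (20 and 67) it had 2 and 96 UMIs, a ratio of 0.0657 (0.00785 to 0.244). In AP RFP+ cells (192 and 100) it was at 2.05 and 12.0 CPM, a ratio of 0.171 (0.0610 to 0.421). The castrated levels of the AP fractions were below the pooled hematopoietic-like level of *Col4a6*. At least 2-fold lower were 15.3%, 17.3% and 7.57% of genes in these 3 contrasts, and at least 2-fold higher were 5.37%, 2.3% and 9.76%. The members counted were 4, 3 and 4, and apart from *Col4a6* only *Lamc1* passed 2-fold, in AP RFP- cells, with 2 and 32 UMIs and a ratio of 0.226 (0.0263 to 0.887).

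The castrated luminal-like cells belonged to other clusters than the intact ones. In AP RFP- cells, 121 of 149 intact cells of run 2 were Lum-B-like, whereas 35 of 49 castrated cells lay in luminal clusters outside Lum-A-like to Lum-D-like and 3 were Lum-B-like. Over all castrated fractions those other luminal clusters held 454 cells, with *Col4a6* at 2.97 CPM and *Lama5* at 31.4 CPM. The 12 Lum-B-like castrated cells held 7 *Col4a6* UMIs, or 89.0 CPM, above the floor of 38.1 CPM that 3 counts give in them. The lower fraction level thus went with fewer Lum-B-like cells, and 12 cells were too few to measure a change within the cluster.

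In VP RFP+ luminal-like cells (126 castrated, 183 intact) *Lama5* was at 11.8 and 5.28 CPM, a ratio of 2.23 (1.35 to 3.63), and the intact level was below the pooled hematopoietic-like level. Here 44.3% of genes were at least 2-fold higher and 2.58% lower, and relative to the median gene *Lama5* was higher by 0.24 on the log2 scale. Of the castrated cells 106 lay in the other luminal clusters, and of the intact cells 171 were Lum-A-like. *Col4a1* had 0 UMIs after castration and 23 in intact cells, or 2.64 CPM, which was below the hematopoietic-like level of the same run, and no fold is drawn from it. *Lama5* and *Lamc1* had ratios of 1.06 and 0.976 in AP RFP+ luminal-like cells.

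The explants showed the members during the days in which prostate buds grow out of the urogenital sinus in culture. The library was 1 set of pooled explants per day without replicates, so the days are compared without a test. In prostatic epithelium-like cells (471, 604, 1050 and 2050 cells on days 0, 1, 3 and 6) the *Col4a1* and *Col4a2* pair climbed several-fold between days 1 and 3, and the X-linked pair stayed nearly level.

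*Col4a1* was at 47.0, 63.9, 253 and 333 CPM on days 0, 1, 3 and 6. *Col4a2* was at 16.8, 29.2, 102 and 148 CPM. Day 6 exceeded day 0 by a ratio of 7.10 for *Col4a1* (95% exact interval 6.52 to 7.74) and of 8.78 for *Col4a2* (7.62 to 10.2), and most of this came between days 1 and 3, with ratios of 3.96 (3.68 to 4.27) and 3.51 (3.14 to 3.93). A *Col4a1* UMI was found in 54.8, 55.6, 75.4 and 79.7% of cells, or 14.9, 15.3, 42.6 and 49.6% after thinning each cell to 3000 UMIs.

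*Col4a5* was at 49.7, 44.7, 44.6 and 59.8 CPM and *Col4a6* at 26.5, 24.5, 24.0 and 23.2 CPM, with day 6 to day 0 ratios of 1.20 and 0.878 (0.768 to 1.01). *Lama1* was at 1.42, 1.73, 2.63 and 3.62 CPM, a ratio of 2.54 (1.52 to 4.52) from 17 UMIs on day 0 and 111 on day 6. *Lamb1* went the other way, at 58.8, 48.5, 30.4 and 29.6 CPM, a ratio of 0.503 (0.455 to 0.556). *Lama5*, at 35.3, 39.9, 31.5 and 36.1 CPM, and *Lamc1*, at 49.1, 60.6, 65.7 and 66.6 CPM, stayed within 2-fold. *Nid1* did not exceed 0.393 CPM in these cells on any day, against 26.4 to 77.4 CPM in mesenchyme-like cells.

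At least 2-fold higher were 0 of 8 members between days 0 and 1, where 4.1% of genes were, 2 between days 1 and 3 (3.03%), 0 between days 3 and 6 (2.43%) and 3 between days 0 and 6 (8.12%). The count between days 0 and 6 was 2 without cells with a stromal UMI, and 2 with all cells of the day. Of those 3 members *Lama1* had the smallest ratio. No member passed 2-fold in the lower direction, where 3.27%, 4.35%, 3.23% and 10.7% of genes did. The median gene had a day 6 to day 0 log2 ratio of -0.16.

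**Figure D5:**
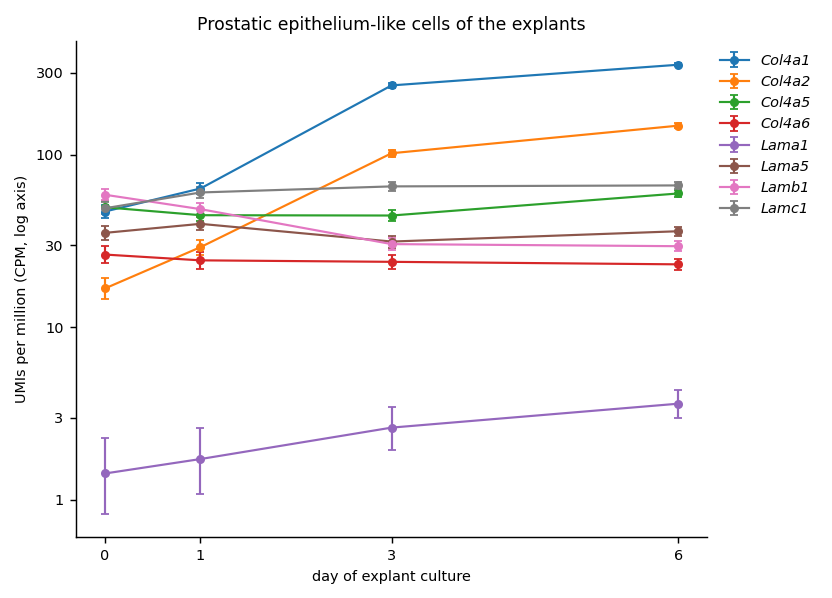
CPM (log axis) of 8 members in prostatic epithelium-like cells of the explants by day of culture, with 95% Poisson intervals that cover counting error only. Col4a1 and Col4a2 climb between days 1 and 3, and Lama1 rises from 1.42 CPM on day 0 to 3.62 CPM on day 6. Lamb1 is lower from day 3 and the other members change less. Nid1 is not drawn, since it stayed at or below 0.393 CPM.

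Within the explant epithelium *Col4a1* followed the sub-clusters. It was at 445.1 and 529.5 CPM in the 2 *Vcan*-high sub-clusters, at 117.3 CPM in the *Krt5*/*Krt14*-high sub-cluster and at 100.5 CPM in the *Krt4*/*Psca*-high sub-cluster. Of the 6 unnamed sub-clusters 3 were at 373.3, 448.9 and 458.7 CPM and 3 at 46.05, 74.38 and 45.04 CPM. Sub-cluster and day largely coincided, since 443 of the 471 day 0 cells lay in the first of the low sub-clusters, and the other two, of 378 and 130 cells, held 343 and 121 cells of day 1. Within the *Krt5*/*Krt14*-high cells it was at 51.5, 120.7 and 120.4 CPM on days 1, 3 and 6, and within the *Krt4*/*Psca*-high cells at 11.1, 67.1 and 141.8 CPM, so the later days were higher inside both. Mesenchyme-like cells had *Col4a1* at 232.9 to 443.8 CPM and urothelium-like cells at 10.3 to 32.8 CPM. Mesenchyme markers in the prostatic epithelium-like cells summed to 24.6, 26.8, 33.6 and 43.0 CPM by day, and their part in the change was not tested.

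Other type IV chains and the modifying enzymes were also followed. From day 0 to day 6, of the genes with enough counts, 5 of 12 other basement membrane chains, 5 of 11 genes for collagen synthesis and 0 of 7 turnover genes were at least 2-fold higher, and 0, 0 and 2 were lower. Among the receptors *Itga6* (ratio 3.96), *Itga2* (2.90) and *Itgb4* (2.68) were at least 2-fold higher and *Itga1* (0.389) was lower. The shares of all genes between these days are given above. *Col4a3* went from 1 to 84 UMIs, a ratio of 32.7 (5.71 to 1306), and *Col15a1* from 1 to 62, a ratio of 24.1 (4.17 to 967.7), so that both ratios rest on 1 UMI on day 0. *Col4a4* went from 12 to 395 UMIs, a ratio of 12.8 (7.25 to 24.99). The lysyl hydroxylase *Plod1* was at 1.76, 7.69, 13.9 and 24.4 CPM on days 0, 1, 3 and 6. The lysyl oxidase *Loxl2* did not climb steadily, at 0.754, 6.67, 3.52 and 7.49 CPM. The gelatinase *Mmp2* had a ratio of 0.121 (0.0722 to 0.195) and *Timp1* of 0.284 (0.203 to 0.396).

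The genes whose pattern was most like that of the *Col4a1* and *Col4a2* pair were sought over 18 sums of basal-like cells, with Pearson's r to the mean log2 CPM of the pair over 2530 genes. They were *Tshz2* (0.910), *Cp* (0.894), *Mfge8* (0.874), *Rhoc* (0.852) and *Lbp* (0.844). Of the members *Lama1* had an r of 0.795 and *Lamc1* of 0.739, while *Col4a6* had -0.212 and *Lama5* -0.270. Over all 38 epithelial sums the nearest were *Pdpn* (0.974), *Pltp* (0.974), *Dcn* (0.969), *Gm1673* (0.968) and *Pdgfa* (0.967). The sums share libraries, pools of mice and the basal to luminal split, so these values only describe the pattern.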

How the data were processed

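Single-cell RNA was measured in 3 adult libraries and 1 explant library by droplet-based 3′ sequencing. The authors deposited a table of raw UMI counts per gene and cell for each library, made with Cell Ranger 3.1.0 on mm10, with Seurat 3.1.5 listed for later steps. The authors also deposited, for each cell, the raw counts of the lipid-tag barcodes and which sorted population each barcode marked. Cells were assigned here by the barcode cut-offs that the study lists, and cells under every cut-off were left out. The counts were used as deposited.

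Adult cells with 750 to 7500 detected genes and under 10% mitochondrial UMIs were kept. This departs from the study, whose text states the 7500 as UMIs per cell. A maximum of 7500 UMIs was run as an alternative. The explant cells kept had at least 1000 genes and under 7.5% mitochondrial UMIs. Cells past the cut-off of more than 1 barcode were dropped as doublets and no doublet caller was run. In runs 1 and 2, doublets with unlabelled intact DLP RFP+ cells could therefore be missed. The study used DoubletFinder for these. Cells were clustered with Seurat 5.3.0 (R 4.3.3) with the members and the other basement membrane chains left out of the variable genes (resolution 0.4 for adult cells, 0.3 for epithelial cells and explants, 0.5 for prostatic epithelium-like cells). Clusters were named from marker lists by their mean z-score. The limits of these rules, and the choice to keep as epithelial the *Epcam*+ cells of 2 clusters led by endothelial markers (353 cells), were set after the data were seen, as were the values of hematopoietic-like cells without run 3 and of Lum-A-like cells without run 2.

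UMIs were summed per population and run, over at least 10 cells, and tested with edgeR 4.0.16 (quasi-likelihood test, TMM, filterByExpr, Benjamini-Hochberg over all genes tested, threshold 0.05), with DESeq2 1.42.0 as an alternative. The 3 runs are separate pools of mice as far as the labels say, so p-values measure the spread between runs. Sums of the same run come from the same library, and their deviations from the group means correlated by 0.033 to 0.668, which is where the pairing of the run block comes from. On simulated counts for AP luminal-like cells RFP+ against RFP- (8988 genes, 200 changed), edgeR recovered 86% of 4-fold and 5% of 2-fold changes with 1.1% false calls. The simulation used 1 dispersion set in advance, not estimated from these data, and drew the sums of a run independently. Recovery in the real data may thus differ. Where a group had 1 sum, ratios were given with exact 95% intervals and no test. Promoters came from RefSeq tables (Python 3.11.15, scipy 1.17.1).

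The members and gene lists were chosen with earlier results of these data known. Of each of 4 lists of pathway genes, at most the 3 with the largest change among those called were named. *Lamb2*, *P4hb*, *Timp1*, *Serpinh1* (after castration), *Cd151* and the receptors of the explants were named after their values were seen. Likeness was ranked on log2(CPM + 1) over genes that averaged 50 CPM or more.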

Additional observations from a re-analysis of the deposited data

Results flagged for a closer look

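The step from luminal-like to basal-like cells in the RFP+ fraction differed between the AP and the VP for 4 members by a test of the difference itself (edgeR's quasi-likelihood test of the interaction, Benjamini-Hochberg over 10167 genes). The AP minus VP log2 values were -2.55 for *Lamc1*, -4.09 for *Col4a5*, -4.49 for *Lamb1* and -5.25 for *Lama1*. For each of them the step was larger in the VP, where the luminal-like cells held 0 *Lama1*, 1 *Lamb1* and 4 *Col4a5* UMIs over 3 runs. The luminal side held 386 Lum-D-like cells in the AP and 353 Lum-A-like cells in the VP, so lobe and cluster cannot be told apart. Without run 2 none of the 4 was called.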

How the results depend on the processing

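Across the alternatives, counts of members past the threshold were within 1.5 times of the value given in 334 cases and moved in 26. Of the values of single members, 781 kept their direction and their side of the threshold, 19 lost the call, 20 gained it, 21 untested ratios moved and 1 reversed, *Col4a6* in basal-like against luminal-like cells (0.45 with all intact populations in 1 fit). An upper limit of 7500 UMIs per cell, which removes most luminal cells, left 2 of 5 members tested higher in basal-like cells, 0 of 1 higher in AP RFP+ basal-like cells and 0 higher and 0 lower in AP RFP+ against RFP- luminal-like cells, where 0 could be tested, and left too few cells for RFP- luminal AP against VP, VP luminal RFP+ against RFP- and both interactions. Members lower in basal-like cells numbered 0 with all intact populations in 1 fit and 0 to 1 with a run left out (0 without run 2 or run 3). Members higher in AP RFP+ luminal-like cells numbered 3 without the low-count filter, 2 with DESeq2, 3 with all intact populations in 1 fit and 0 to 1 with a run left out (0 without run 2). In RFP- luminal-like cells, 2 members were higher in the AP than the VP with all intact populations in 1 fit, which was not made for the interactions. Members lower in AP than VP RFP+ basal-like cells numbered 2 without the filter, 2 with DESeq2, 1 without cells with a stromal or immune UMI and 0 to 2 with a run left out (2 without run 1). For the basal step in AP against VP, members called lower numbered 7 without the filter, 2 with compartments from keratin UMIs and 0 to 4 with a run left out. Members at least 2-fold higher after castration numbered 0 without the 50 most abundant genes and 3 with compartments from keratin UMIs, and 1 was lower between explant days 1 and 3 when all cells were summed. The cause of these shifts was not tested.

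With the run as a replicate block, 2 members were higher in AP RFP+ luminal-like cells, 2 lower in AP than VP RFP+ basal-like cells and 7 lower for the basal step, and the block changed no call of a member beyond these and *Col4a6* in AP RFP+ cells. Genes called over the whole table moved from 33 to 541 with the block in RFP+ basal-like cells of AP against VP (238 without the filter, 94 with DESeq2, 0 without run 2, 0 without the cells of the 2 endothelial-marker clusters), from 55 to 537 in RFP- luminal AP against DLP, from 23 to 144 in VP luminal RFP+ against RFP-, from 0 to 50 in AP basal RFP+ against RFP-, from 2797 to 4202 in AP RFP+ basal against luminal, from 449 to 1208 for the difference of the RFP effect and from 901 to 1889 for the basal step (99 without run 2, 158 without run 3, 382 without the 2 clusters). Without the filter, RFP- luminal AP against VP went from 1131 to 1801. With 3 runs and 2-fold changes rarely recovered on simulated data, members that missed the threshold may still differ.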

Other observations

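The share of the *Col4a1* and *Col4a2* UMIs that came from *Col4a2* was similar in most cells with high levels. It was 34.7% in intact basal-like cells (95% Wilson interval 33.1 to 36.3%), 35.4% in castrated basal-like cells, 34.0% in endothelial-like cells and 29.4% in fibroblast-like cells. In hematopoietic-like cells, where levels were low, it was 36.2%, with 15 of 33 UMIs in run 2 and 0 of 12 in run 3. In Lum-A-like cells it was 10.3% (5.54 to 18.5%, 9 of 87 UMIs), with 0 of 17 UMIs from *Col4a2* in run 1, 8 of 43 in run 2 and 1 of 27 in run 3. Without run 2 it was 2.27% (0.402 to 11.8%, 1 of 44 UMIs). It was 3.45% in VP RFP+ luminal-like cells (0.951 to 11.7%, 2 of 58 UMIs). In prostatic epithelium-like cells of the explants it was 26.4, 31.4, 28.8 and 30.7% on days 0, 1, 3 and 6. For the X-linked pair, *Col4a6* took 34.7% of the UMIs on day 0 (31.7 to 37.9%) and 28.0% on day 6 (26.3 to 29.8%) in the explants, and 91.7% in AP RFP- and 90.9% in DLP RFP- luminal-like cells of intact adults.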
